A study of Mus musculus with 6 samples.

Results

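MicroRNA-22 (miR-22) was described in small RNA libraries of primary dermal fibroblasts through its 2 mature arms, miR-22-3p (mmu-miR-22-3p) and miR-22-5p (mmu-miR-22-5p), which were the rows of those names among the 1907 miRNAs listed. It was picked for its level: miR-22-3p had the most counts of any miRNA in all 6 libraries, and its difference between the groups was already known when it was picked. Its rank and level are therefore given as a description. The fibroblasts came from the skin of newborn mice of mixed C57Bl/6 and FVB/N background, grew for 6 days in culture and were at passage 1. Those of 3 mice carried Col1a2Cre together with a constitutively active Nrf2 mutant (caNrf2), and those of 3 mice carried Col1a2Cre without it (ctrl). The Col1a2 promoter drives the Cre recombinase in fibroblasts, so both groups express Cre, and the libraries hold no mRNA that would show how many of the cultured cells switched the mutant on.

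A miRNA is cut from a hairpin whose 2 strands give a 5p and a 3p arm, and bases 2 to 8 of the arm that enters an Argonaute protein, the seed, pair with target mRNAs. The Mir22 hairpin is made from a long noncoding host transcript. miR-22-3p is known for repressing the DNA demethylase gene Tet2, for its abundance in heart muscle and for its rise in senescent human fibroblasts. Nrf2 is the transcription factor that switches on antioxidant and detoxification genes.

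The precursor and both arms are shown because the arm counts below are set against each other. In RefSeq (GRCm38.p6, the assembly of mm10) Mir22 lies on the plus strand at chr11:75463716-75463810, where the GENCODE M21 annotation puts it inside exon 2 of the noncoding host gene Mir22hg and inside exon 2 of 1 transcript of the overlapping coding gene Tlcd2. Capitals mark the arms in the 95-base hairpin and the seed in each arm.
Mir22 hairpin: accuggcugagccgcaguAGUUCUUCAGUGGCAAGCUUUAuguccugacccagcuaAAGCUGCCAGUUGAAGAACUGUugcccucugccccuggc
miR-22-5p: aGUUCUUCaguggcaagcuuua
miR-22-3p: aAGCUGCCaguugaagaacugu
In the structure predicted by RNAfold (-41.9 kcal/mol), 19 of the 22 bases of miR-22-3p paired with miR-22-5p, and 16 bases separated the arms. miR-22-5p spans chr11:75463734-75463755 and miR-22-3p spans chr11:75463772-75463793.

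Neither arm shared its seed with any other of 1679 mature mouse miRNA names in RefSeq, and each occurred in only 1 of 1005 hairpins. The nearest mature sequence to miR-22-3p was miR-3966, from chr10:97423493-97423513, shown because its reads could be confused with those of miR-22-3p. It starts at base 2 of miR-22-3p and differs by U11C and A14U, with positions counted from the 5′ end of miR-22-3p and the differing bases in capitals.
miR-3966: agcugccagCugUagaacugu
miR-3966 had 5, 6 and 16 counts in caNrf2 libraries 1, 2 and 3, against 2, 3 and 6 in ctrl libraries 1, 2 and 3. Adding these counts to miR-22-3p would hardly alter it. They were taken after reads were assigned to names, so they cannot show how many reads of miR-3966 were counted as miR-22-3p. The nearest names to miR-22-5p differed from it by 8 edits.

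The libraries held 13733970, 24163719 and 28237159 counts for caNrf2 and 10443268, 16446668 and 20595024 counts for ctrl, so a count of 3 corresponded to 0.106 to 0.287 CPM, the usual scale of counts relative to library size. Shares below are percentages of all counts of a library, and their exact binomial 95% intervals cover counting error only. Of 7 fibroblast miRNAs listed as markers (miR-199a-5p, miR-199b-5p, miR-214-3p, miR-143-3p, miR-145a-5p, miR-21a-5p and miR-152-3p) all were detected, and together they held 205664 to 233997 CPM in caNrf2 libraries and 202352 to 209048 CPM in ctrl libraries. Most of these sums was miR-21a-5p and miR-143-3p. By edgeR, miR-199a-5p, miR-199b-5p and miR-152-3p fell (log2 fold changes -0.51, -0.46 and -0.48, adjusted p = 0.00269, 0.00248 and 0.00145), no member rose, and the median log2 fold change of the 7 was -0.27.

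miR-22-3p took more of the caNrf2 libraries than of the ctrl libraries. Its share was 22.9%, 22.8% and 21.3% in caNrf2 libraries 1, 2 and 3, against 17.8%, 17.5% and 17.7% in ctrl libraries 1, 2 and 3. Counting error was small at these depths: the interval of ctrl library 1, the shallowest, ran from 17.78% to 17.82%. The lowest caNrf2 library stood above the highest ctrl library, and the ctrl libraries lay closer together than the caNrf2 libraries. The mean was 22.3% ± 0.92 in caNrf2 and 17.7% ± 0.14 in ctrl fibroblasts (SD, n = 3 each), a difference of 4.64 points (two-sided exact permutation p = 0.1; with 3 libraries a group no smaller p can be reached). In bulk RNA a larger share can come from more cells with the miRNA, from more of it per cell or from less of the other miRNAs. These cannot be told apart.

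**Figure D1:**
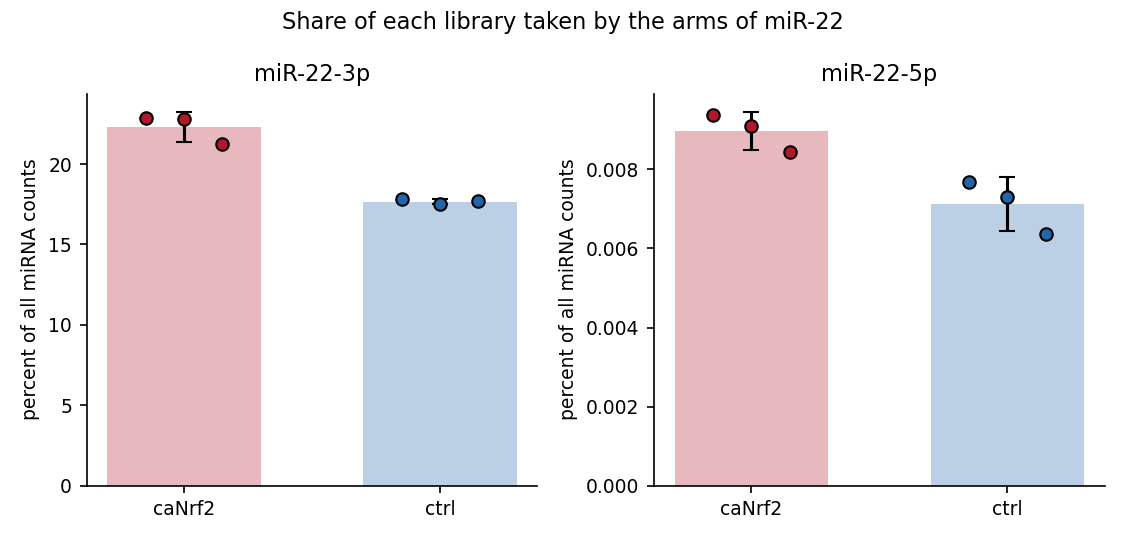
Percent of all miRNA counts taken by miR-22-3p (left) and miR-22-5p (right) in the 3 caNrf2 and 3 ctrl libraries; points are libraries, bars are means and whiskers are SD. For both arms every caNrf2 library lies above every ctrl library, and the scale of the right axis is far smaller.

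Scaled by the trimmed mean of M-values (TMM), miR-22-3p had 220376, 228855 and 214782 CPM in caNrf2 libraries, against 179013, 175386 and 179798 CPM in ctrl libraries. It rose 1.24-fold (log2 fold change 0.31 ± 0.10, SE; edgeR quasi-likelihood test, Benjamini-Hochberg adjusted p = 0.0349 over 697 tested miRNAs). Among all tested miRNAs 14.1% were called higher and 11.6% lower, so such a call was common. Its CPM did not overlap between the groups, as was so for 41.6% of all tested miRNAs in either direction and 23.7% in the direction of higher caNrf2 levels. The call was lost with RLE size factors (log2 fold change 0.28, adjusted p = 0.0703) and without caNrf2 library 1 (0.0993), caNrf2 library 2 (0.115), caNrf2 library 3 (0.0675), ctrl library 2 (0.0992) or ctrl library 3 (0.0820). Its log2 fold change stayed between 0.27 and 0.34 in every alternative.

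miR-22-5p, the arm that is mostly discarded, was present at a level that places it between rank 205 and rank 218 of the listed miRNAs. It had 1288, 2195 and 2385 counts in caNrf2 libraries, against 802, 1202 and 1309 counts in ctrl libraries. As a share of the library this was 0.00938%, 0.00908% and 0.00845% in caNrf2 and 0.00768%, 0.00731% and 0.00636% in ctrl fibroblasts. The groups did not overlap, as was so in the direction of higher caNrf2 shares for 24.7% of all tested miRNAs. The mean was 0.00897% ± 0.00048 in caNrf2 and 0.00711% ± 0.00068 in ctrl fibroblasts (SD, n = 3 each; two-sided exact permutation p = 0.1). The log2 fold change was 0.31 ± 0.11 and did not pass (edgeR adjusted p = 0.0666). It passed with the tests limited to miRNAs averaging 10 CPM or more (adjusted p = 0.0272) and without ctrl library 1 (0.0493).

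The 2 arms thus had fold changes of 1.24 each, and the ratio between them did not differ detectably. There were 2440, 2509 and 2516 counts of miR-22-3p for each count of miR-22-5p in caNrf2 libraries 1, 2 and 3, against 2318, 2398 and 2782 in ctrl libraries 1, 2 and 3. The caNrf2 libraries all lay inside the ctrl range. The 95% interval of ctrl library 3, 2636 to 2939, lay above those of the other 5 libraries, the highest of which ended at 2620. The mean ratio was 2488 ± 42.4 in caNrf2 and 2499 ± 248 in ctrl fibroblasts (SD, n = 3 each; two-sided exact permutation p = 1). On the log2 scale the difference, caNrf2 minus ctrl, was -0.0015 with a 95% interval of -0.20 to 0.20 (limma over 211 arm pairs, adjusted p = 0.995). A difference this close to 0 has no stable sign: it was 0.08 without ctrl library 3, 0.01 without caNrf2 library 1 and 0.0010 with a pseudocount of 5 (adjusted p = 0.875, 0.969 and 0.998).

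miR-22 had the second most uneven arms of the 211 precursor names with both arms tested. Both arms had to pass the count filter, so a ratio this large can be seen only for an abundant miRNA. miR-22 was picked for its level, so its rank here partly restates that level. The abundant let-7f-5p and miR-26a-5p were not in this ranking. The mean ratio of major to minor arm, taken on the log2 scale, was 2489 for miR-22, between 3626 for miR-298 and 1943 for miR-541, and the median over all pairs was 10.9. Of the 211 pairs 7 exceeded 1000. The arm ratio of no pair (0%) was called different between the groups by limma at an adjusted p under 0.05, while 25 pairs had an unadjusted p under 0.05, and the count of calls was also 0 in all 11 alternatives. The change of the miR-22 ratio was smaller than that of all but 2 pairs, the median size of change being 0.16 on the log2 scale.

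**Figure D2:**
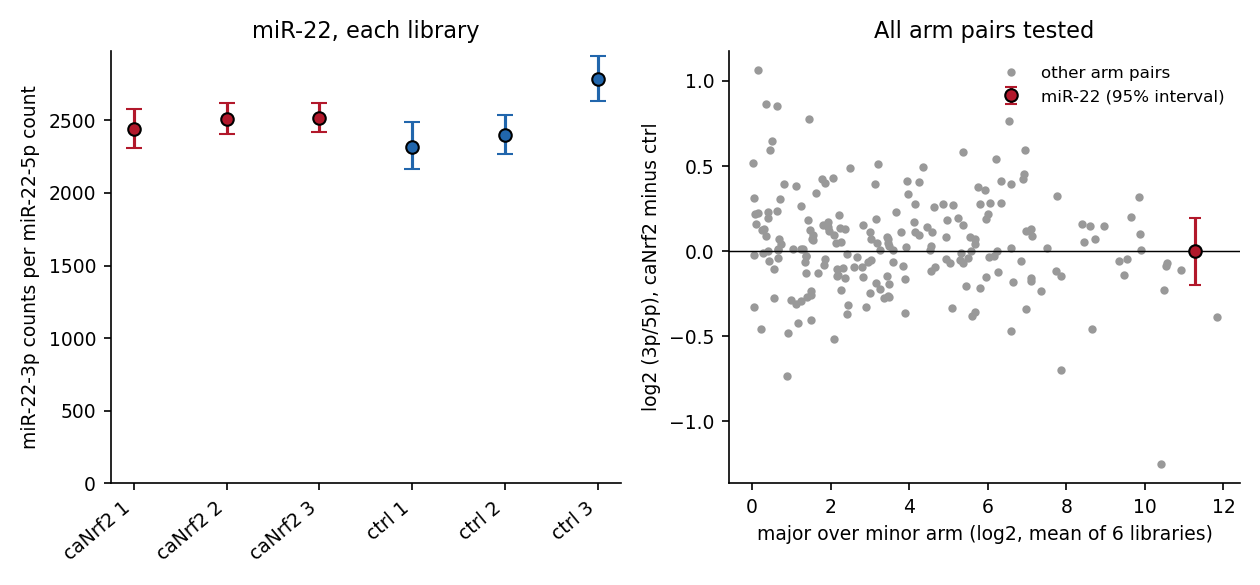
Left, counts of miR-22-3p per count of miR-22-5p in each library with exact 95% binomial intervals. Right, each of 211 arm pairs by how uneven its arms are (x, log2 of major over minor arm) and by the difference of log2 3p over 5p between caNrf2 and ctrl (y); miR-22 lies near 0 at the far right with its 95% interval.

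miR-22-3p stood well ahead of the miRNA in second place. That was miR-143-3p, a miRNA of contractile cells, in caNrf2 library 1 and miR-21a-5p, known from wound repair and fibrosis, in the other 5 libraries. miR-22-3p had 2.17, 1.92 and 1.797 times the counts of the second miRNA in caNrf2 libraries 1, 2 and 3, against 1.63, 1.67 and 1.63 times in ctrl libraries 1, 2 and 3. The groups did not overlap (means 1.96 ± 0.19 and 1.64 ± 0.03 in caNrf2 and ctrl, SD, n = 3 each; two-sided exact permutation p = 0.1). Over all libraries the next after these were let-7i-5p, miR-10b-5p, miR-27b-3p, miR-199a-3p, let-7f-5p, miR-127-3p and miR-26a-5p. Of the 10 miRNAs with the highest mean share 9 matched a RefSeq mature sequence, with 8 different seeds, and none had that of miR-22-3p. The largest loser and the 2 largest gainers with a printed sequence are shown to set their seeds beside it.
miR-10b-5p: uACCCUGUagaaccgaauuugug
miR-27b-3p: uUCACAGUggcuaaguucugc
miR-21a-5p: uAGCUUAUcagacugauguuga

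The gain of miR-22-3p was the largest shift in percentage points, a measure that grows with level, and miR-22-3p was picked for its level. On the log2 scale several miRNAs below changed more. Against its 4.64 points, the other gaining miRNAs together gained 4.91 points and the losing miRNAs together lost 9.55 points, so that the net loss of all others equalled the gain of miR-22-3p, as it must for percentages. After miR-22-3p the largest gains were those of miR-143-3p (1.97 points), miR-27b-3p, a miRNA known from fat and endothelial cells (0.867 points), miR-21a-5p (0.399 points) and miR-29a-3p, which represses collagen genes (0.211 points). miR-143-3p had 10.5%, 10.6% and 9.91% of caNrf2 counts, against 8.64%, 8.74% and 7.71% of ctrl counts, with no overlap (edgeR log2 fold change 0.28, adjusted p = 0.0512). It passed with library totals (0.0358), with no filter (0.0272), at 10 CPM or more (0.00696), with a replicate block (0.0330), without ctrl library 1 (0.0467) and with library totals that leave out miR-22-3p (0.0144). The shares of miR-21a-5p overlapped, being 9.73%, 11.9% and 11.8% in caNrf2 and 10.9%, 10.5% and 10.8% in ctrl libraries (log2 fold change 0.03, edgeR adjusted p = 0.861; the sign turned to -0.0030 with RLE size factors or DESeq2, and to -0.05, -0.03 and -0.00024 without caNrf2 library 2, caNrf2 library 3 or ctrl library 2). By edgeR miR-27b-3p rose (log2 fold change 0.37, adjusted p = 0.0183) and so did miR-29a-3p (0.36, adjusted p = 0.0106). The first lost its call without caNrf2 library 1 (0.0557), caNrf2 library 2 (0.0709), ctrl library 2 (0.0758) or ctrl library 3 (0.0774), and the second without caNrf2 library 2 (0.0577) or caNrf2 library 3 (0.0516).

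Out of the 9.55 points lost by all losing miRNAs, the 5 largest losses summed to -4.37 points. They were those of miR-10b-5p (-1.45 points), miR-127-3p (-0.81), miR-199a-3p (-0.798), let-7i-5p (-0.751) and miR-10a-5p (-0.556). miR-10b-5p and miR-10a-5p lie in the Hox clusters, miR-127-3p in the imprinted Dlk1-Dio3 cluster, miR-199a-3p is a mesenchymal miRNA, and let-7i-5p belongs to the let-7 family. miR-10b-5p had 3.14%, 2.93% and 3.50% of caNrf2 counts, against 4.71%, 4.45% and 4.77% of ctrl counts. In none of the 5 did the shares of the groups overlap, as was so in the direction of lower caNrf2 shares for 16.5% of all tested miRNAs. Like the largest gains, these 5 were picked by their difference in these same libraries. Their lack of overlap and their calls are therefore a description and no separate evidence. By edgeR 4 of them fell, with log2 fold changes from -0.41 to -0.73, and let-7i-5p did not pass (-0.27, adjusted p = 0.0605). let-7i-5p passed with RLE size factors (0.0464), DESeq2 (0.0322), no filter (0.0406), 10 CPM or more (0.0391) and a replicate block (0.0434). The call of miR-199a-3p did not hold without caNrf2 library 1 (0.0608) or ctrl library 3 (0.0611), and its counts cannot be told from those of the identical miR-199b-3p.

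When miR-22-3p was left out of the total, these gains and losses kept their directions. The others held 77.7% of the caNrf2 and 82.3% of the ctrl counts, so including miR-22-3p lowered every other share by 5.64% in caNrf2 relative to ctrl, or by 0.08 on the log2 scale. Without it the gain of miR-143-3p was 3.15 points in place of 1.97, that of miR-27b-3p 1.32 and that of miR-21a-5p 1.29 points, and the loss of miR-10b-5p was -1.53 points in place of -1.45. The 5 losing miRNAs still had lower shares in every caNrf2 library than in any ctrl library.

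**Figure D3:**
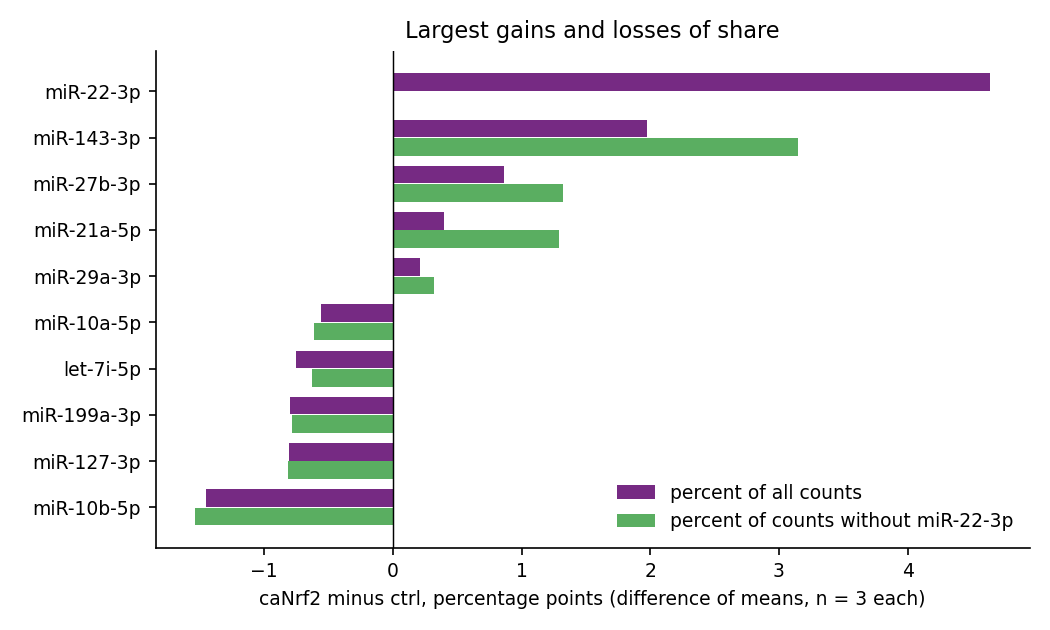
Difference of mean share (caNrf2 minus ctrl, percentage points, n = 3 each) for the 5 miRNAs with the largest gains, miR-22-3p among them, and the 5 with the largest losses, as a percent of all counts and as a percent of the counts other than miR-22-3p. Directions are the same under both totals, and miR-22-3p has no bar under the second.

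Leaving miR-22-3p out moves every other log2 ratio by about the same amount, so directions turn only where a ratio is close to 0. Of the 696 other tested miRNAs 310 had a lower mean share in caNrf2 fibroblasts with all counts as the total and 253 with miR-22-3p left out, so 57 changed direction. That number counts ratios near 0 and tests nothing. let-7f-5p was the most abundant of these, with 2.89% of the caNrf2 and 2.92% of the ctrl counts, but 3.72% and 3.54% of the counts without miR-22-3p. Lower shares without overlap were found for 115 miRNAs with all counts and 91 with miR-22-3p left out, and higher shares without overlap for 171 with all counts and 209 with it left out. For all 697 tested miRNAs the groups did not overlap in 41.2%. The median log2 ratio of mean shares over the 696 miRNAs was 0.14 without miR-22-3p and 0.05 with it. Leaving out caNrf2 library 1 gave 175 lower shares without overlap in place of 115, with all counts as the total. Removing a library can only keep or raise this number, which ran from 125 to 175 without each library.

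**Figure D4:**
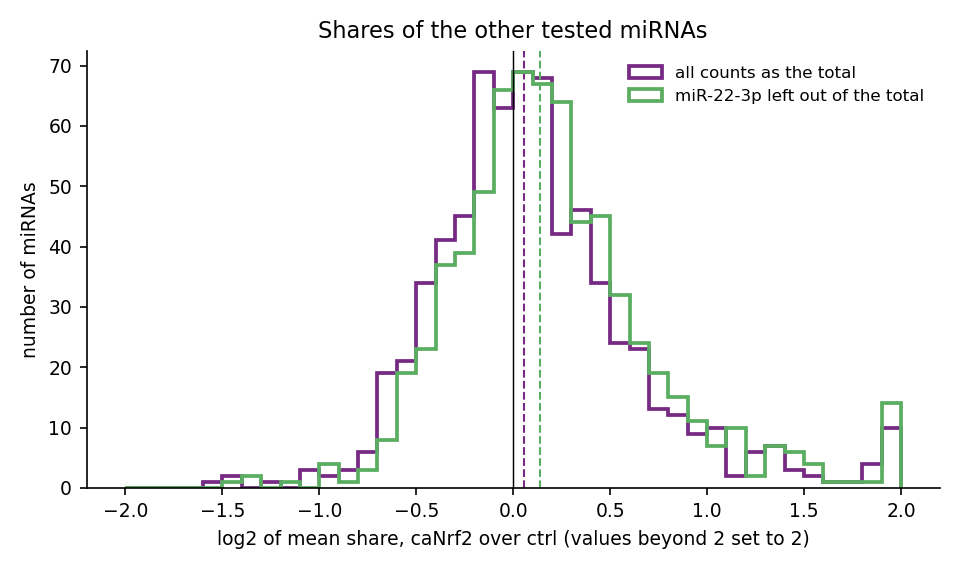
Log2 ratio of mean share, caNrf2 over ctrl, for the 696 tested miRNAs other than miR-22-3p, with all counts as the total and with miR-22-3p left out of it; dashed lines are the medians, 0.05 and 0.14. The second outline is the first moved to the right.

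When libraries were scaled by their totals alone, the same shift reached the calls. edgeR then called 103 other miRNAs higher and 76 lower with miR-22-3p in the totals, and 127 higher and 57 lower without it. All 103 were among the 127 and all 57 among the 76, so 24 calls of a rise and 19 of a fall rested on which total was used. With TMM scaling the calls hardly depended on miR-22-3p: 97 higher and 81 lower with it, 96 and 82 without it, of which 96 and 81 were shared. TMM trims extreme miRNAs from its scaling, and log2 fold changes moved by -0.01 at the median when miR-22-3p was removed.

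The libraries were also less even in caNrf2 fibroblasts. The effective number of miRNAs, which is the inverse of the sum of squared shares and equals the number of miRNAs if all were equally abundant, was 12.2, 11.6 and 12.8 in caNrf2 libraries, against 15.8, 16.4 and 16.2 in ctrl libraries. miR-22-3p alone made up 60.7% ± 3.20 of that sum in caNrf2 and 50.4% ± 0.27 in ctrl fibroblasts (SD, n = 3 each). With miR-22-3p left out the effective number was 20.2, 17.6 and 18.7 in caNrf2 libraries, against 21.5, 22.4 and 22.3 in ctrl libraries. The groups did not overlap in either case (two-sided exact permutation p = 0.1 each). The means differed by -3.93 with miR-22-3p and by -3.23 without it. The second difference was less firm: measured as the exponential of the Shannon entropy it was -1.95 (exact permutation p = 0.3), and p was 0.2 without ctrl library 2 or ctrl library 3.

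The precursors within 1 Mb of Mir22 gave 7 mature names, of which miR-6926-3p, miR-6926-5p and miR-3971 had at most 1 count in all. The other 4 were the arms of Mir212 and Mir132, a pair of miRNAs known to respond to neuronal activity and growth factors, 290 kb before Mir22. miR-212-5p had 33.9, 33.2 and 30.3 CPM in caNrf2 libraries, against 22.8, 25.1 and 18.8 CPM in ctrl libraries, and rose 1.46-fold (edgeR adjusted p = 0.0206). It lost the call without caNrf2 library 1 (0.0567), caNrf2 library 2 (0.0667), caNrf2 library 3 (0.0525) or ctrl library 3 (0.0881). miR-132-3p, the most abundant of the 4, had 288, 246 and 259 CPM in caNrf2 libraries, against 229, 234 and 200.4 CPM in ctrl libraries, which missed the threshold (edgeR adjusted p = 0.0779 for a log2 fold change of 0.26 ± 0.10). miR-132-3p passed in 2 of 15 alternatives, none of which removed a library. For miR-132-5p the log2 fold change was 0.29 (edgeR adjusted p = 0.197), and for miR-212-3p it was 0.08 (0.657). The letters TGACNNNGC are the core of the antioxidant response element that Nrf2 binds. In the 300-base window around the start of Mir22hg (chr11:75461289-75461588) they were not found on either strand. Of 32851 mouse promoter windows in RefSeq 12.4% held them, so their absence was the common case. Other transcripts that hold Mir22 start at chr11:75461644 and chr11:75461715, beyond this window. Binding by Nrf2 was not tested.

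Of the miRNAs averaging 100 CPM or more, those with the profile nearest to miR-22-3p were chosen by the root mean square difference of centred log2 CPM over the 6 libraries, which favours small differences of the same size. They were miR-186-5p (0.05), miR-143-3p (0.06), miR-24-2-5p (0.07), miR-181c-5p (0.07) and miR-128-3p (0.07), out of 193 candidates. miR-186-5p had 3910, 4310 and 4156 CPM in caNrf2 libraries, against 3497, 3211 and 3302 CPM in ctrl libraries. The nearest to miR-22-5p were miR-143-3p (0.04), miR-17-5p (0.06), miR-27b-3p (0.07), miR-145a-3p (0.08) and miR-99b-3p (0.08). miR-143-3p was in both sets. The arms of miR-22 differed from each other by 0.08, so that 7 of these candidates lay nearer to miR-22-3p than its own other arm did.

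**Figure D5:**
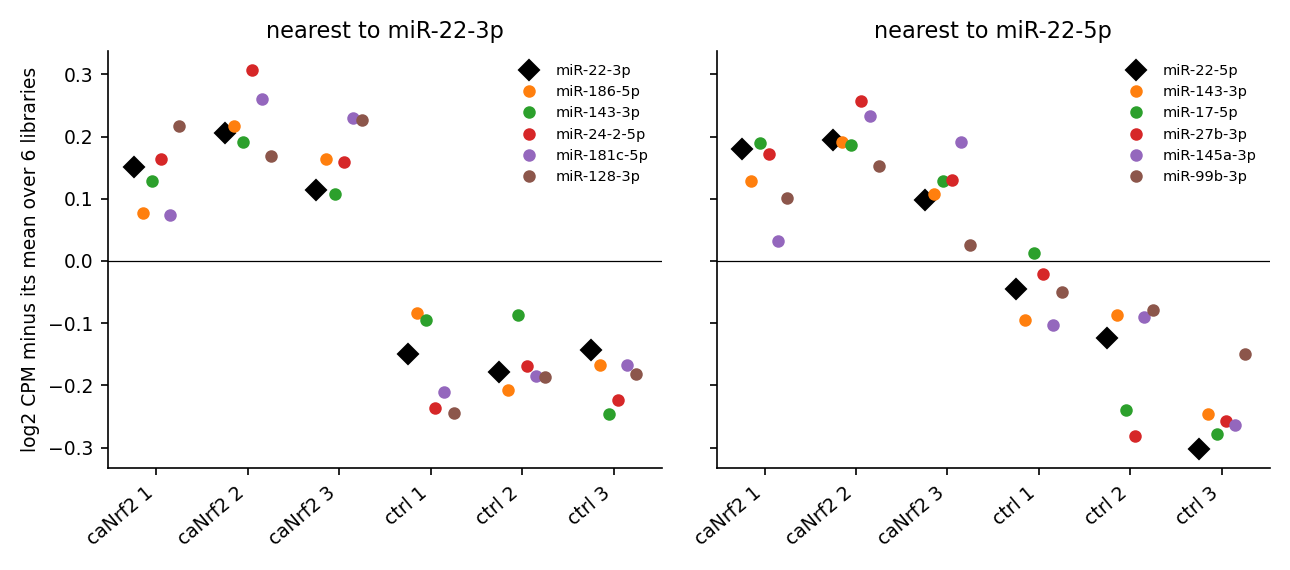
Log2 CPM (TMM-scaled) minus its mean over the 6 libraries for miR-22-3p (left) and miR-22-5p (right), diamonds, and the 5 nearest miRNAs, circles. All caNrf2 points lie above 0, and all ctrl points lie below 0 except that of miR-17-5p in ctrl library 1.

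miRNAs reported to repress Tet2, as miR-22-3p is, moved in both directions. Among the 7 tested, miR-29a-3p and miR-29c-3p rose and miR-26a-5p and miR-125b-5p fell, with a median log2 fold change of 0.06, against 0.03 over all 697 tested miRNAs, of which 25.7% were called. The miR-26a-5p call (log2 fold change -0.31 ± 0.10, edgeR adjusted p = 0.0379) was lost with the 5 most abundant miRNAs left out (adjusted p = 0.0552) and when any library but ctrl library 2 was removed (0.0514 to 0.149). With library totals that leave out miR-22-3p it was also lost, at a log2 fold change of -0.20 (adjusted p = 0.152). The miR-125b-5p call (edgeR adjusted p = 0.0299) was lost without any one caNrf2 library (0.0595 to 0.0689), without ctrl library 2 (log2 fold change -0.24 in place of -0.38, 0.0656) and with those same totals (-0.28, 0.103).

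Of 11 tested miRNAs associated with cellular senescence, 4 rose and none fell, against 14.1% called higher over all tested miRNAs. The median log2 fold change was 0.29, against 0.03 over all tested miRNAs. The list was not split by the direction its members take in senescence, so these values give no direction for senescence. miR-146a-5p, which restrains inflammatory signalling, had 37.1, 40.2 and 32.3 CPM in caNrf2 libraries, against 20.6, 18.1 and 21.0 CPM in ctrl libraries, and miR-29c-3p had 111 ± 4.05 and 56.4 ± 4.80 CPM in caNrf2 and ctrl (SD, n = 3 each). The other 2 were miR-29a-3p and miR-17-5p (0.33, edgeR adjusted p = 0.0216), which did not pass when any library but ctrl library 1 was removed (0.0549 to 0.106). The p53-induced miR-34a-5p, the best known of the list, was not called (edgeR adjusted p = 0.137 for a log2 fold change of -0.23 ± 0.10). The listed miR-34b-5p and miR-34c-5p had the opposite sign and were not called either (log2 fold changes 0.37 and 0.29, edgeR adjusted p = 0.148 and 0.0755).

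Markers of other cell types differed between the groups at levels far below that of miR-22-3p. Their counts of calls stand against the 14.1% of all tested miRNAs that were called higher. The 6 leukocyte miRNAs summed to 340 to 397 CPM in caNrf2 and 206 to 260.1 CPM in ctrl libraries, with 4 of 6 tested members called higher. The erythroid list summed to 495 to 589 CPM in caNrf2 and 353 to 412 CPM in ctrl libraries, with 1 of 4 called higher. Most of these sums was the called member, miR-486a-5p (means 534 and 386 CPM in caNrf2 and ctrl). The median log2 fold change of the list was -0.27. miR-451a had a positive log2 fold change (0.48), miR-144-3p and miR-144-5p negative ones (-0.998 and -1.49). None of these was called (edgeR adjusted p = 0.114, 0.0873 and 0.0938). The muscle list, which matters here because miR-22 is abundant in muscle, summed to 564 to 747 CPM in caNrf2 and 347 to 426 CPM in ctrl libraries, with 5 of 5 tested called higher, while miR-1a-3p, which defines striated muscle, had 1, 9 and 6 counts in caNrf2 libraries and 5, 2 and 2 counts in ctrl libraries. The neural list summed to 39.3 to 46.8 CPM in caNrf2 and 24.9 to 32.0 CPM in ctrl libraries, with 2 of 3 called higher. Neither the 7 epithelial miRNAs (1600 to 2120 CPM in caNrf2, 1035 to 1864 CPM in ctrl) nor the 2 endothelial ones (147 to 170.4 CPM in caNrf2, 116 to 165 CPM in ctrl) had a called member. No marker of these lists was at 0 in all libraries. The part of such cells in the miR-22 difference was not tested.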

How the data were processed

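The authors deposited 1 file per library with unnormalized read counts for each mature miRNA; the unit was read from the values, which are whole numbers. CASAVA 1.8, cutadapt, Bowtie, featureCounts, edgeR and mm10 are named in the submitters' processing notes, without settings, so the treatment of reads that fit several miRNAs is not given in the sources used here. All file headers carry 1 run and lane label.

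The quasi-likelihood fit of edgeR 4.0.16 (R 4.3.3) had group as its single term, a filterByExpr minimum count of 10 and TMM factors of 0.984 to 1.04 (glmQLFit, glmQLFTest; Benjamini-Hochberg threshold 0.05). SEs were derived from the F statistic. Of 1907 names 488 had no count and 697 were tested. Arm ratios, log2((3p + 0.5)/(5p + 0.5)), were fitted with limma 3.58.1 for 211 of 747 precursor names with both arms listed. Shares were compared by exact permutation over 20 assignments. RNAfold 2.7.2 predicted the hairpin. Sequences are from RefSeq (1623 names matched). No molecular identifiers are named, so intervals cover counting error only.

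No 2 libraries of a group agreed within sampling noise (chi-square per degree of freedom at least 101). The series design gives 3 mice per group. On simulated counts with 2-fold changes edgeR recovered 89% of 200 changed miRNAs among 680 tested and limma 82.8% of 93 changed ratios among 200 pairs; with 1.5-fold changes these were 52.5% of 200 among 675 and 31.0% of 84 among 203.

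Named miRNAs were the 10 with the highest mean share, the 5 largest gains and 5 largest losses of share, the 5 nearest profiles to each arm, neighbours within 1 Mb, and up to 4 per list by smallest p. miR-3966, miR-298, miR-541, miR-34a-5p, miR-34b-5p, miR-34c-5p, miR-1a-3p, miR-6926, miR-3971 and the erythroid miRNAs were named outside that rule or after their values were seen. The members and lists were chosen with earlier results of these data known. The alternatives tried were library totals only, RLE size factors, miR-22-3p or the 5 most abundant miRNAs left out, DESeq2 1.42.0, other filters, other totals, a pseudocount of 5, limma without trend, the Shannon index, a replicate block and leaving out each library. Library totals without miR-22-3p were added after seeing the data. The result of 1 list is not reported here.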

Additional observations from a re-analysis of the deposited data

How the results depend on the processing

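miR-22-3p and miR-22-5p kept a positive log2 fold change in all alternatives run. For miR-22-3p it was 0.28 with RLE size factors (edgeR adjusted p = 0.0703) and 0.27 to 0.33 without each library in turn (0.0430 to 0.115). For miR-22-5p it was 0.34 at a mean of at least 10 CPM (adjusted p = 0.0272), 0.42 with library totals that leave out miR-22-3p, chosen after seeing the data (0.0285), and 0.24 to 0.36 without each library (0.0493 to 0.217). The arm ratio difference was 0.0010 with a pseudocount of 5 and -0.054 to 0.078 without each library. Share differences stayed positive, from 4.35 to 5.17 points for miR-22-3p without each library.

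At a mean of at least 10 CPM 60 miRNAs were called higher in place of 98, the shares of 186 others were lower (155 without miR-22-3p in the total), and 84 were higher without overlap (110 without it); fewer miRNAs enter that filter. Without each library 125 to 175 were lower without overlap, a number that removing a library can only keep or raise. The log2 fold change of miR-21a-5p was -0.0030 with RLE size factors and with DESeq2 and -0.045 to 0.13 without each library. That of let-7f-5p was -0.080 to 0.034 without each library and 0.07 with library totals without miR-22-3p. Calls of other named miRNAs that were lost are given beside their values above, apart from those that follow. That of miR-186-5p went without caNrf2 library 2 (adjusted p = 0.0700), caNrf2 library 3 (0.0659) or ctrl library 3 (0.0522), and that of miR-145a-3p (0.0292 in all libraries) with RLE size factors (0.0556), DESeq2 (0.0781), no filter (0.0663) or without caNrf2 library 2 (0.146), caNrf2 library 3 (0.124) or ctrl library 3 (0.131). The cause was not tested.

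The labels do not say whether replicate numbers pair the samples. Deviations from the group means correlated at 0.18, 0.19 and -0.22 for numbers 1, 2 and 3. Not every library correlated best with its own number. With 3 libraries a group these values cannot decide whether the numbers mark pairs. With a replicate block 102 miRNAs were called higher and 87 lower, miR-22-3p had a log2 fold change of 0.31 (adjusted p = 0.0253) and the arm ratio difference was -0.0015. The SE of the log2 fold change was 0.10 for miR-22-3p and 0.11 for miR-22-5p despite the difference in depth. Both SEs come from the edgeR fit, which also draws on the variation of the other tested miRNAs. They therefore do not measure the spread of each arm between these libraries alone.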
